A study of Mus musculus with 8 samples.

Results

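The genes described here are 50 collagens and matrix assembly genes, followed in tumors of the mouse mammary carcinoma line 4T1. They were listed by symbol, with no threshold on a measured value, and were found among the 25006 Ensembl gene identifiers counted in each library by matching identifiers to mouse symbols. The list was chosen with earlier results of these data known, so its comparison with all genes is not an independent check. All 50 were found and all 50 passed the filter on low counts, which kept 15310 genes. The study compared 4T1 tumors with and without CD95, the death receptor encoded by Fas, in mouse hosts of 2 kinds, NSG and Balb/c. The cells were injected into the fat pad and the tumors were taken within 20 days. Total RNA of the tumors was sequenced in 8 libraries, 2 in each of 4 groups. The NSG wild-type and Balb/c wild-type groups each held a tumor library of the parental line and of a line stably expressing vCas9. The NSG knockout and Balb/c knockout groups each held a library of CRISPR/Cas9 knockout clone 54 and of clone 69. NSG mice have no mature lymphocytes or NK cells, and Balb/c is the immunocompetent strain in which 4T1 arose. The strains also differ in genetic background, so immune status and strain cannot be told apart. Both knockout lines are single clones, which the labels do not say of the wild-type lines, so clonal origin and CD95 status cannot be told apart either. Whether a library held 1 tumor or several is not given, so the tests measure the spread between these libraries, which within a group come from different lines.

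Fibrillar collagens are secreted as procollagens, trimmed at their ends, assembled into fibrils and crosslinked through lysine residues, and they give stroma its tensile strength. Basement membranes are sheets of type IV collagen and laminin, joined by nidogen and perlecan, that underlie epithelium and surround blood vessels, fat and muscle cells. In carcinomas most fibrillar collagen is made by cancer-associated fibroblasts, while basement membrane components come from several cell types, the tumor cells included. The members were ordered by role as 7 fibrillar collagens, 7 other interstitial collagens, 14 basement membrane genes, 6 matrix glycoproteins, 4 small leucine-rich proteoglycans, 4 elastic fibre genes, 6 genes of collagen maturation and crosslinking, and 2 genes of the ADAMTS family.

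Libraries held between 8.68 M and 19.7 M counts (M for mega). Levels are given as CPM, a count scaled to its library's depth with the TMM method, and in each pair of values the parental line or clone 54 comes before the vCas9 line or clone 69. Fas was at 33.9 and 22.6 CPM in NSG wild type, 29.5 and 12.9 in NSG knockout, 51.6 and 46.9 in Balb/c wild type, and 27.1 and 33.7 in Balb/c knockout, so the groups overlapped in NSG and the knockout status rests on the labels. Carcinoma keratins, claudins and related markers, 8 genes in all, were detected in every library, with a summed level of 743 to 4231 CPM. The summed level of 7 T cell markers lay at 4.82 to 9.28 CPM in NSG tumors and at 308 to 380 CPM in Balb/c tumors. RNA of tumor cells and of host cells was counted together, so that fewer cells of a type and less RNA per cell cannot be told apart.

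The 50 members were lower in Balb/c than in NSG tumors, with both wild-type and knockout tumor cells. Other collagen chains, described further on, did not share this direction as a group in wild type. Among wild-type tumors, all 50 members had a negative log2 fold change and 21 passed the test, all of them lower in Balb/c (edgeR's quasi-likelihood test with Benjamini-Hochberg adjustment over all 15310 genes, threshold 0.05). Over all genes 31.5% passed, 16.2% as lower. The median log2 fold change of the members was -1.35, against -0.08 over all genes tested. Among knockout tumors, 40 of 50 passed, again all of them lower in Balb/c, where 31.1% of all genes passed and 15.4% were lower. The median was -2.01, against 0.02 over all genes. The calls shared 19 members, 2 (Col15a1 and Thbs1) passed in wild type alone, 21 passed in knockout alone, and 8 (Col6a1, Col6a2, Col11a1, Nid2, Fn1, Postn, Lum and Fmod) passed in neither. A call in 1 genotype alone is not a difference between genotypes, which was tested separately through the interaction described further on. Without regard to the test, both Balb/c wild-type libraries lay below both NSG wild-type libraries for 43 of 50 members (41% of all genes), and the knockout libraries were apart in the same way for 47 of 50 (31.9% of all genes). Within single lines, 41 of 50 members were lower in the Balb/c tumor than in the NSG tumor of the same line in all 4 lines, which 24.3% of all genes were. All 4 Balb/c libraries lay below all 4 NSG libraries for 35 of 50 members, against 17.5% of all genes. The scaling moved the balance of calls over all genes: of the host calls in wild type, 2344 were higher and 2481 lower with TMM, 2676 higher and 1945 lower with RLE size factors, and 1905 higher and 3315 lower with library totals alone. In knockout 2403 were higher and 2354 lower with TMM, 2434 and 2305 with RLE size factors, and 1756 and 2951 with library totals alone. Library totals alone shifted the median of all genes to -0.24 in wild type and -0.17 in knockout. The members' medians were then -1.50 and -2.19, and with RLE size factors -1.25 and -1.99.

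**Figure D1:**
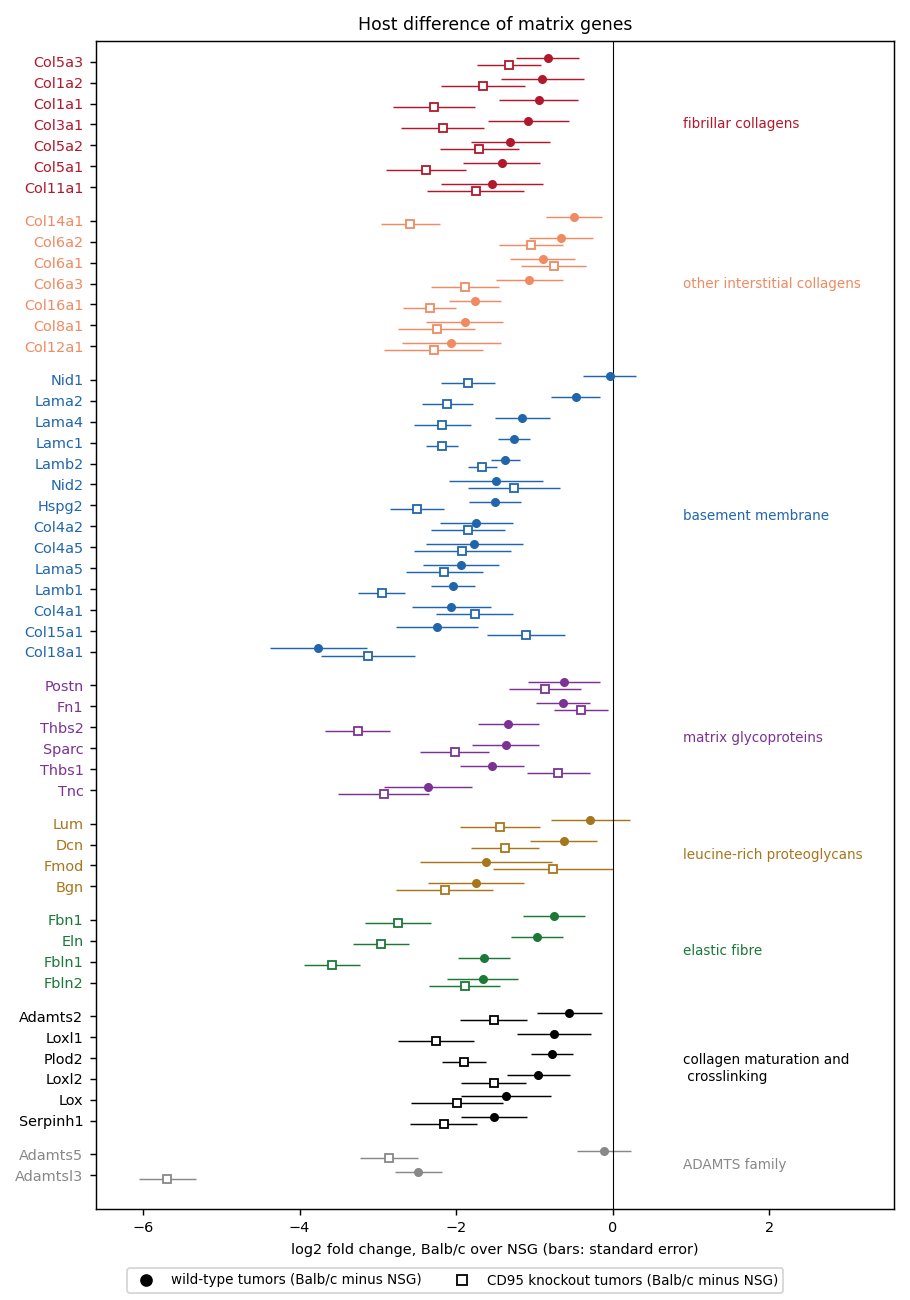
Log2 fold change of each of the 50 genes between Balb/c and NSG tumors, with its standard error, in wild-type tumors (filled circles) and CD95 knockout tumors (open squares), grouped by role and ordered within a group by the wild-type value. All points lie below 0, from -3.76 (Col18a1) to -0.04 (Nid1) in wild type and from -5.69 (Adamtsl3) to -0.40 (Fn1) in knockout.

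The members made up a sizeable share of each library's counts, and that share was smaller in Balb/c. Scaled to library totals alone, they summed to 46371 and 66040 CPM in NSG wild type and 69817 and 77888 in NSG knockout. In Balb/c these sums were 26473 and 20046 CPM in wild type and 27475 and 12916 in knockout. They were not divided by exon length, so they are shares of counts and not of transcripts. The host groups did not overlap. The lowest library was the Balb/c tumor of clone 69, where 36 of the 50 members had their lowest level. The share of all genes that were lowest there is not given here. No member had its highest level in a Balb/c library.

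To show the upstream sequence of genes that were lower together, 5 windows are printed below, 1 gene each for an abundant fibrillar collagen, a minor fibrillar collagen, a laminin, the collagen chaperone and the member with the widest host difference. Each is the 250 bases before a transcription start in RefSeq on the GRCm38.p6 build, 5′ to 3′ on the gene's strand, and capitals mark CCAAT or GGGCGG on either strand (ATTGG and CCGCCC on the reverse).
Col3a1 (chr1:45311288-45311537, plus strand): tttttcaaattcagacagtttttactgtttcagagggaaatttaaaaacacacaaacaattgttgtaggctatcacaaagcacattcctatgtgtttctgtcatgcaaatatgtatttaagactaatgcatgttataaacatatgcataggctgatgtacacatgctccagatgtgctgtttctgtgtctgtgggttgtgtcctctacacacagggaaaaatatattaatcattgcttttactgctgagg
Col5a3 (chr9:20815068-20815317, minus strand): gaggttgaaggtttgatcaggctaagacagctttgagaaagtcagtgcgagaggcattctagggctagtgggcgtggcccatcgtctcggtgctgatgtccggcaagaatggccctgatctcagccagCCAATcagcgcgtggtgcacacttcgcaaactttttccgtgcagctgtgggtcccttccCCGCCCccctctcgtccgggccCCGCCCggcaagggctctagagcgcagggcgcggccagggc
Lama5 (chr2:180225860-180226109, minus strand): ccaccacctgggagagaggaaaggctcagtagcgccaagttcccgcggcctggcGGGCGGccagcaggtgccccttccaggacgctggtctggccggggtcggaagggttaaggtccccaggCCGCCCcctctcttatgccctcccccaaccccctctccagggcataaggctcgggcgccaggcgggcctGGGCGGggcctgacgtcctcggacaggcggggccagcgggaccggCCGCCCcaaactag
Serpinh1 (chr7:99353240-99353489, minus strand): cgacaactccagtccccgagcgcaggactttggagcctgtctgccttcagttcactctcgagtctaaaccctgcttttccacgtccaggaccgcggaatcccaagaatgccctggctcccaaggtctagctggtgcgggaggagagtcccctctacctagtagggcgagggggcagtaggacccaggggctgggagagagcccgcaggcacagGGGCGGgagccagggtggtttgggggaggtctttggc
Adamtsl3 (chr7:82335444-82335693, plus strand): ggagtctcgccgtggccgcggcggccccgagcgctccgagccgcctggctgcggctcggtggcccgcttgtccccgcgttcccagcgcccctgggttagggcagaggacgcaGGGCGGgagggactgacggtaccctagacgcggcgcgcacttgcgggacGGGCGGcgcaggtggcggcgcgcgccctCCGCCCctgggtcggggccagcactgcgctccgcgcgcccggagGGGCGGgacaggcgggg

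RefSeq windows were matched for 33 members with 38 start sites. The GC box core GGGCGG was found in 24 of these 38 windows (63.2%), against 32.7% of all 32851 windows of the same length. CCAAT was found in 11 of 38 (28.9%), against 33.9% of all windows, and TATAAA, also searched on both strands, in 5 of 38 (13.2%), against 12.4%. Among the windows printed, that of Col3a1 holds neither capitalised motif but 1 TATAAA, that of Col5a3 holds 1 CCAAT and 2 GGGCGG, those of Lama5 and Adamtsl3 hold 4 GGGCGG each, and that of Serpinh1 holds 1. These are matches of letters and no binding was measured.

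Fibrillar collagens were lower in Balb/c tumors, and 6 of 7 passed the test in knockout but 0 of 7 in wild type (3 had an unadjusted p under 0.05 there, as lower; 24.5% of all genes did). Their median log2 fold change was -1.08 in wild type and -1.75 in knockout. Col3a1 (type III collagen, chr1:45311538-45349706, plus strand, GRCm38) was the most abundant member per length in every group but Balb/c knockout, where Fn1 was first. Length here is the union of a gene's annotated exons, and the transcripts made may be shorter. Col3a1 stood at 1364 ± 349 CPM per kb of exon in NSG wild type and 647 ± 217 in Balb/c wild type (SD, n = 2). Its level was 10968 and 15816 CPM in NSG wild type, 20924 and 16776 in NSG knockout, 7855 and 4845 in Balb/c wild type and 6080.1 and 2293 in Balb/c knockout. Every Balb/c library was below every NSG library, and the log2 fold change was -1.08 (SE 0.51, adjusted p = 0.140) in wild type and -2.17 (SE 0.53, adjusted p = 0.0182) in knockout.

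The type I chains form the main fibril of most connective tissue. Col1a1 was at 2532 and 3794 CPM in NSG wild type, 4941 and 5626 in NSG knockout, 1783 and 1499.8 in Balb/c wild type and 1663 and 509 in Balb/c knockout. Its partner chain Col1a2 was at 3007 and 4618 CPM in NSG wild type, 5473 and 5355 in NSG knockout, 2288 and 1791 in Balb/c wild type and 2655 and 772 in Balb/c knockout. Both were lower in every Balb/c library than in every NSG library, with knockout host differences of -2.28 (SE 0.53, adjusted p = 0.0147) for Col1a1 and -1.66 (SE 0.54, adjusted p = 0.0497) for Col1a2. In wild type the differences were -0.95 and -0.90, with adjusted p = 0.181 and 0.217. Per length of exon the ratio of Col1a1 to Col1a2 lay between 1.19 and 1.99 in the 8 libraries.

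Type V and type XI collagens are minor fibril components that set fibril diameter. Col5a1 had the widest knockout difference of the fibrillar group and was at 818 and 1218 CPM in NSG wild type, 1346 and 1562 in NSG knockout, 443 and 318 in Balb/c wild type and 421 and 134 in Balb/c knockout. The log2 fold change was -2.39 (SE 0.51, adjusted p = 0.0107) in knockout and -1.42 (SE 0.49, adjusted p = 0.0600) in wild type. Its partner Col5a2 differed by -1.70 (SE 0.51, adjusted p = 0.0371) in knockout. Col5a3 had the narrowest difference of the group in both genotypes and was at 326 and 429.7 CPM in NSG wild type, 321 and 357 in NSG knockout, 235 and 191 in Balb/c wild type and 197 and 74.5 in Balb/c knockout. It passed in knockout (-1.32 (SE 0.41, adjusted p = 0.0414)), a call not retained with the cell line as a block or without any 1 of 6 libraries, and had -0.83 (SE 0.40, adjusted p = 0.144) in wild type. Col11a1 was the scarcest of the group, at 1.94 and 8.78 CPM in NSG wild type, 9.84 and 12.1 in NSG knockout, 1.70 and 1.94 in Balb/c wild type and 4.07 and 2.41 in Balb/c knockout. Its wild-type difference of -1.54 (SE 0.65, adjusted p = 0.104) came with overlapping groups, since the NSG tumor of the parental line stood close to the Balb/c tumors.

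Among the other interstitial collagens, 3 of 7 passed as lower in wild type and 5 of 7 in knockout, with medians of -1.06 and -2.25. Col12a1, a fibril-associated collagen, was at 1137 and 1732 CPM in NSG wild type, 889 and 1518 in NSG knockout, 381 and 305 in Balb/c wild type and 402 and 90.7 in Balb/c knockout. The difference was -2.06 (SE 0.63, adjusted p = 0.0408) in wild type and -2.29 (SE 0.64, adjusted p = 0.0291) in knockout. Col16a1, another fibril-associated collagen, was at 211 and 258 CPM in NSG wild type, 231 and 269 in NSG knockout, 76.4 and 62.5 in Balb/c wild type and 66.7 and 31.7 in Balb/c knockout and fell in both genotypes, with log2 fold changes of -1.76 in wild type and -2.34 in knockout. Col8a1, a short-chain collagen of vessel walls, was at 138 and 199 CPM in NSG wild type, 193 and 249 in NSG knockout, 36.8 and 53.9 in Balb/c wild type and 22.5 and 70.7 in Balb/c knockout and fell as well, at -1.89 in wild type and -2.25 in knockout. In these 3 genes the hosts did not overlap.

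Col14a1, also a fibril-associated collagen, passed in knockout alone, and its interaction did not pass (-2.09, adjusted p = 0.100, edgeR's quasi-likelihood test). It was at 478 and 730.3 CPM in NSG wild type, 1141 and 877 in NSG knockout, 548 and 309.8 in Balb/c wild type and 202 and 135 in Balb/c knockout. The wild-type host groups overlapped and differed by -0.49 (SE 0.36, adjusted p = 0.308), while the knockout groups differed by -2.58 (SE 0.38, adjusted p = 0.00241). The type VI chains, which form beaded microfilaments around cells, had smaller differences for Col6a1 and Col6a2 than for Col6a3. Col6a1 was at 514 and 659 CPM in NSG wild type, 614 and 718 in NSG knockout, 308 and 322 in Balb/c wild type and 581 and 207 in Balb/c knockout, with -0.90 (SE 0.42, adjusted p = 0.134) in wild type and -0.76 (SE 0.42, adjusted p = 0.207) in knockout. Col6a3 passed in knockout alone, at -1.89 (SE 0.43, adjusted p = 0.0143).

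Basement membrane genes had the most wild-type calls of the groups by role: 10 of 14 passed as lower in wild type and 12 of 14 in knockout, with medians of -1.62 and -2.02. Col18a1, the collagen whose fragment is endostatin, had the widest wild-type difference of all 50 members. Its level was 435 and 371 CPM in NSG wild type, 178 and 603 in NSG knockout, 25.0 and 34.4 in Balb/c wild type and 62.2 and 27.3 in Balb/c knockout (chr10:77052178-77166548, minus strand). Balb/c tumors lay between 25.0 and 62.2 CPM, and NSG tumors between 178 and 603 CPM. The difference was -3.76 (SE 0.62, adjusted p = 0.00611) in wild type, a call not retained without the Balb/c tumor of the parental line, and -3.12 (SE 0.60, adjusted p = 0.00722) in knockout, a call not retained with the cell line as a block.

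Type IV collagen is the network-forming collagen of basement membranes. Col4a1 was at 669 and 1019 CPM in NSG wild type, 656 and 1639.6 in NSG knockout, 159.9 and 245 in Balb/c wild type and 436 and 239 in Balb/c knockout and fell, at -2.06 in wild type and -1.76 in knockout. Col4a2, which is transcribed from the same promoter region on the other strand and shares 22 bases of exon with Col4a1, was at 334 and 543 CPM in NSG wild type, 406 and 965 in NSG knockout, 109 and 152 in Balb/c wild type and 242 and 139 in Balb/c knockout and fell, at -1.74 in wild type and -1.85 in knockout. Both chains were highest in the NSG tumor of clone 69, and the hosts did not overlap. Per length of exon the ratio of Col4a1 to Col4a2 lay between 1.295 and 1.78 in the 8 libraries. The minor chain Col4a5 passed in knockout alone (-1.92 (SE 0.62, adjusted p = 0.0480)). Col15a1, a collagen of the zone next to vascular basement membranes, was 1 of 4 basement membrane genes with a wider difference in wild type than in knockout, beside Col18a1, Col4a1 and Nid2, and 8 of all 50 members had this order. It was at 102 and 196 CPM in NSG wild type, 140.0 and 285 in NSG knockout, 25.8 and 36.8 in Balb/c wild type and 137 and 59.9 in Balb/c knockout, and passed in wild type (-2.25 (SE 0.52, adjusted p = 0.0172)) but not in knockout (-1.11 (SE 0.50, adjusted p = 0.128)), where the Balb/c and NSG tumors of clone 54 stood at almost the same level.

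Laminins are heterotrimers of an alpha, a beta and a gamma chain. Lamb1, a beta chain, was at 587 and 482 CPM in NSG wild type, 498 and 654 in NSG knockout, 138 and 122 in Balb/c wild type and 92.9 and 55.9 in Balb/c knockout. The difference was -2.04 (SE 0.29, adjusted p = 0.00351) in wild type and -2.95 (SE 0.30, adjusted p = 0.000630) in knockout, and both calls held in every alternative run. Lamc1, the common gamma chain, was at 523 and 531 CPM in NSG wild type, 522 and 606 in NSG knockout, 237 and 203 in Balb/c wild type and 138 and 111 in Balb/c knockout and fell, at -1.26 in wild type and -2.18 in knockout. Lamb2, another beta chain, fell too (-1.37 in wild type and -1.67 in knockout), as did Lama4, the alpha chain of vascular and fat basement membranes (-1.15 in wild type and -2.17 in knockout). Lama5, the alpha chain of epithelial and vascular basement membranes, was at 526 and 407 CPM in NSG wild type, 397 and 529 in NSG knockout, 86.3 and 157 in Balb/c wild type and 54.9 and 154 in Balb/c knockout and fell, at -1.94 in wild type and -2.15 in knockout. Lama2, the muscle and mesenchymal alpha chain, differed by -0.47 (SE 0.31, adjusted p = 0.272) in wild type and -2.11 (SE 0.33, adjusted p = 0.00296) in knockout.

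The linker proteins of the basement membrane were less alike. Nid1, which joins laminin to type IV collagen, was at 254 and 411 CPM in NSG wild type, 579 and 496 in NSG knockout, 416 and 231 in Balb/c wild type and 167 and 131 in Balb/c knockout. Its wild-type difference of -0.04 (SE 0.33, adjusted p = 0.937) was the smallest of all members and changed sign in 7 of the alternatives run, while in knockout it fell (-1.85 (SE 0.35, adjusted p = 0.00634)). Nid2 passed in neither genotype (-1.49 and -1.26), and 8.45% of its exon length overlaps Rtraf on the other strand. Hspg2, which encodes perlecan, was at 476 and 611 CPM in NSG wild type, 633 and 1026 in NSG knockout, 207 and 177 in Balb/c wild type and 184 and 108 in Balb/c knockout and fell, at -1.50 in wild type and -2.50 in knockout.

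**Figure D2:**
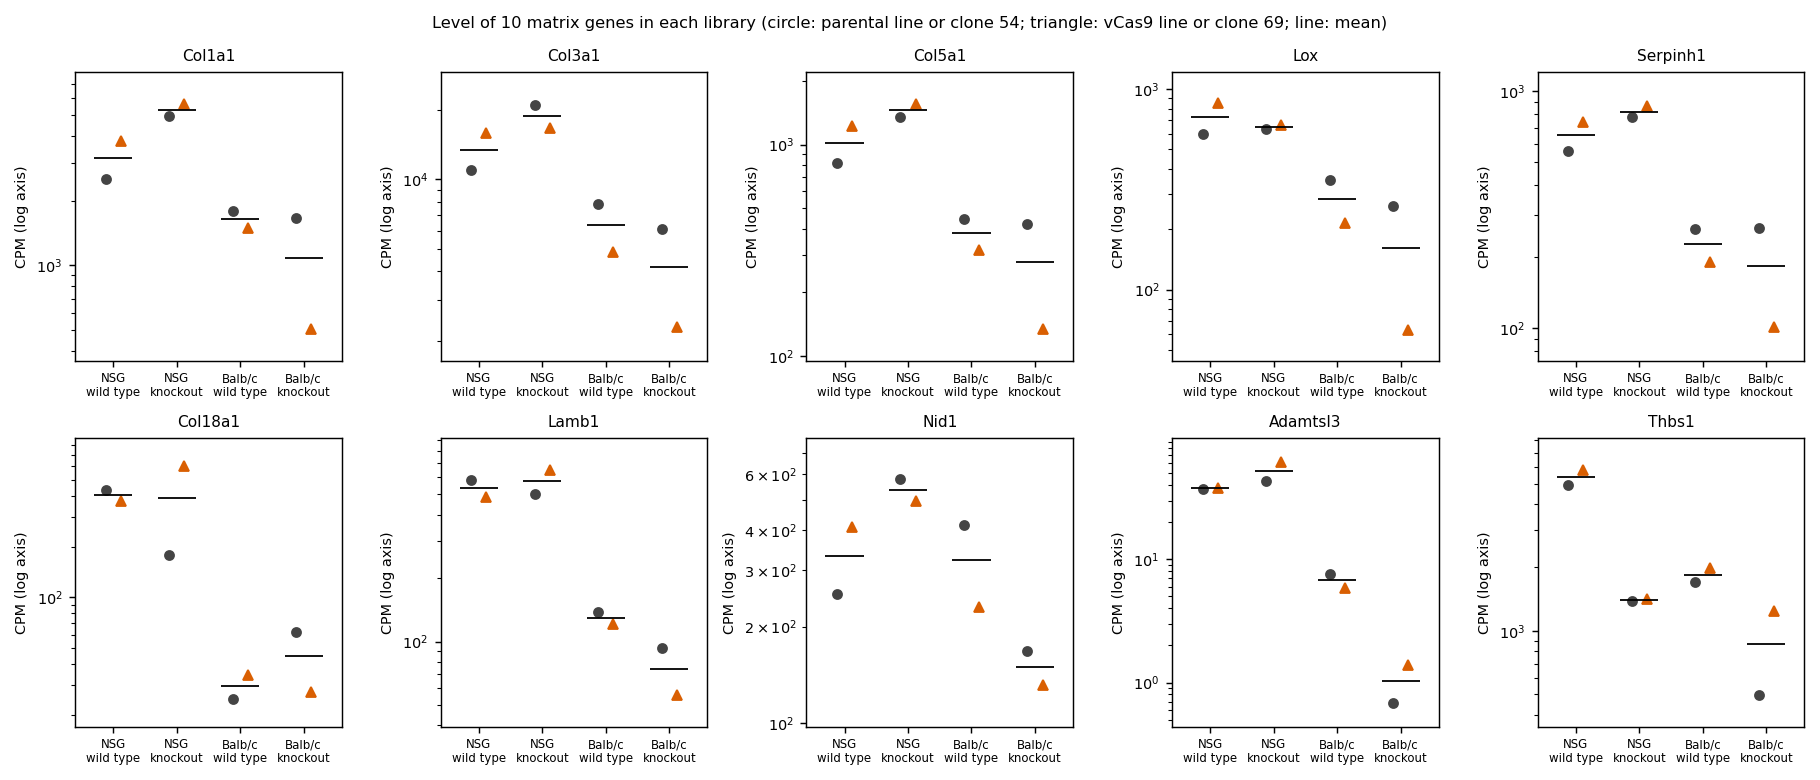
CPM of 10 members in each of the 8 libraries on log axes, by group; circles are the parental line or clone 54, triangles the vCas9 line or clone 69, and lines group means. Col1a1, Col3a1, Col5a1, Lox, Serpinh1, Col18a1, Lamb1 and Adamtsl3 are lower in every Balb/c library than in every NSG library, and Nid1 overlaps between the wild-type groups.

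Of the matrix glycoproteins, 4 of 6 passed as lower in wild type and 3 of 6 in knockout. Tnc (tenascin C, an adhesion-modulating protein of remodelled stroma) was at 923 and 1545 CPM in NSG wild type, 701 and 1327 in NSG knockout, 251 and 229.7 in Balb/c wild type and 204 and 62.9 in Balb/c knockout. It fell in both genotypes, at -2.36 in wild type and -2.92 in knockout. Sparc, a collagen-binding glycoprotein, was at 1726 and 2453 CPM in NSG wild type, 2926 and 2487 in NSG knockout, 913 and 708 in Balb/c wild type and 956 and 379 in Balb/c knockout and fell, at -1.37 in wild type and -2.02 in knockout. Fn1 (fibronectin, on which collagen is assembled) was at 5279 and 6759 CPM in NSG wild type, 7379 and 8104 in NSG knockout, 4186 and 3583 in Balb/c wild type and 7420.2 and 4299 in Balb/c knockout. It had the smallest knockout difference of all members (-0.40 (SE 0.35, adjusted p = 0.410)), and per kb of exon it was the most abundant member in Balb/c knockout, at 501 ± 189 CPM per kb beside 426 ± 273 for Col3a1 (SD, n = 2), which overlap. Postn (periostin, which supports collagen crosslinking) differed by -0.63 (SE 0.46, adjusted p = 0.317) and -0.86 (SE 0.46, adjusted p = 0.192).

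The thrombospondins, which bind matrix proteins and cell surface receptors, differed from each other. Thbs1 was at 4916 and 5821 CPM in NSG wild type, 1393 and 1419.5 in NSG knockout, 1701 and 1988 in Balb/c wild type and 498 and 1241 in Balb/c knockout. The NSG wild-type tumors stood above all others, so that the host difference was -1.54 (SE 0.41, adjusted p = 0.0269) in wild type and -0.69 (SE 0.40, adjusted p = 0.227) in knockout. Thbs2 was at 597 and 819 CPM in NSG wild type, 911 and 1047 in NSG knockout, 334 and 229 in Balb/c wild type and 141 and 63.2 in Balb/c knockout, with no overlap between hosts. It fell in both genotypes, at -1.33 in wild type and -3.26 in knockout, the third widest knockout difference.

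The small leucine-rich proteoglycans, which coat collagen fibrils, had 0 of 4 calls in wild type (1 with an unadjusted p under 0.05) and 2 of 4 in knockout. Bgn (biglycan) was at 524 and 947 CPM in NSG wild type, 1188 and 976 in NSG knockout, 254 and 186 in Balb/c wild type and 397 and 91.1 in Balb/c knockout. Its difference was -1.74 (SE 0.61, adjusted p = 0.0626) in wild type and -2.15 (SE 0.62, adjusted p = 0.0336) in knockout, a call not retained without any 1 of 6 libraries. Dcn (decorin) differed by -0.62 (SE 0.43, adjusted p = 0.286) and -1.38 (SE 0.43, adjusted p = 0.0448). Lum (lumican) was at 133 and 233 CPM in NSG wild type, 446 and 278 in NSG knockout, 187 and 113 in Balb/c wild type and 196 and 71.1 in Balb/c knockout, with overlapping wild-type groups and a difference of -0.28 (SE 0.51, adjusted p = 0.685). Fmod (fibromodulin) was scarce, at 2.35 and 5.30 CPM in NSG wild type, 6.21 and 6.66 in NSG knockout, 0.849 and 1.59 in Balb/c wild type and 6.51 and 0.948 in Balb/c knockout, and its knockout groups overlapped (-0.76 (SE 0.77, adjusted p = 0.482)).

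Elastic fibre genes passed in 2 of 4 cases in wild type and in 4 of 4 in knockout, with medians of -1.31 and -2.85. Fbln1 (fibulin-1) was at 63.9 and 90.3 CPM in NSG wild type, 129.7 and 115 in NSG knockout, 29.2 and 20.1 in Balb/c wild type and 13.3 and 6.86 in Balb/c knockout. It fell in both genotypes, at -1.65 in wild type and -3.59 in knockout, and both host pairs were apart. Eln (elastin) was at 63.5 and 119 CPM in NSG wild type, 205 and 191 in NSG knockout, 59.0 and 34.3 in Balb/c wild type and 24.1 and 27.0 in Balb/c knockout, with -0.97 (SE 0.33, adjusted p = 0.0594) and -2.96 (SE 0.36, adjusted p = 0.00121). Fbn1 (fibrillin-1, the microfibril scaffold) was at 1082 and 1721 CPM in NSG wild type, 2948 and 2161 in NSG knockout, 1046 and 623 in Balb/c wild type and 484 and 276 in Balb/c knockout, with -0.75 (SE 0.40, adjusted p = 0.177) and -2.75 (SE 0.42, adjusted p = 0.00289). Of its exon length 20.1% overlaps the opposite-strand gene Gm9913, and the strand setting of the counting is not given in the sources used here. Fbln2 (fibulin-2) was at 721 and 1005 CPM in NSG wild type, 916 and 931 in NSG knockout, 311 and 235 in Balb/c wild type and 369 and 129 in Balb/c knockout and fell, at -1.66 in wild type and -1.89 in knockout.

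Collagen maturation and crosslinking genes passed in 1 of 6 cases in wild type and in 6 of 6 in knockout, with medians of -0.86 and -1.95. Serpinh1, the chaperone HSP47 that folds procollagen, was the wild-type call. Its level was 559 and 739 CPM in NSG wild type, 773 and 864 in NSG knockout, 262 and 191 in Balb/c wild type and 265 and 102 in Balb/c knockout. It differed by -1.52 (SE 0.42, adjusted p = 0.0300) in wild type and -2.16 (SE 0.43, adjusted p = 0.00818) in knockout. Plod2, the lysyl hydroxylase of collagen telopeptides, was at 158 and 163 CPM in NSG wild type, 141 and 135 in NSG knockout, 103 and 83.6 in Balb/c wild type and 47.8 and 25.7 in Balb/c knockout, with -0.78 (SE 0.27, adjusted p = 0.0607) and -1.90 (SE 0.28, adjusted p = 0.00250). Adamts2, which removes the amino propeptide of procollagen, had the smallest wild-type difference of the group and was at 97.9 and 154 CPM in NSG wild type, 196 and 180.3 in NSG knockout, 102 and 70.5 in Balb/c wild type and 93.9 and 36.9 in Balb/c knockout, with -0.55 (SE 0.42, adjusted p = 0.333) and -1.52 (SE 0.43, adjusted p = 0.0299).

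The lysyl oxidases catalyse the crosslinks themselves. Lox was at 595 and 855 CPM in NSG wild type, 629.7 and 659 in NSG knockout, 350.4 and 215 in Balb/c wild type and 261 and 62.9 in Balb/c knockout. Its difference was -1.36 (SE 0.58, adjusted p = 0.104) in wild type and -1.99 (SE 0.59, adjusted p = 0.0357) in knockout, with no overlap between hosts. Loxl1, which also crosslinks elastin, was at 83.1 and 133 CPM in NSG wild type, 200.1 and 168 in NSG knockout, 81.9 and 46.5 in Balb/c wild type and 56.2 and 20.4 in Balb/c knockout and had the widest knockout difference of the group (-2.26 (SE 0.49, adjusted p = 0.0114)), while in wild type it had -0.75 (SE 0.47, adjusted p = 0.246). Loxl2, which crosslinks type IV collagen, differed by -0.95 (SE 0.41, adjusted p = 0.106) and -1.52 (SE 0.41, adjusted p = 0.0264).

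Adamtsl3, an ADAMTS-like matrix protein without protease activity (chr7:82335694-82614450, plus strand), had the widest knockout difference of all members. It was at 37.4 and 37.9 CPM in NSG wild type, 43.0 and 61.8 in NSG knockout, 7.64 and 5.82 in Balb/c wild type and 0.688 and 1.39 in Balb/c knockout. The NSG tumors stood at 37.4 to 61.8 CPM, the Balb/c wild-type tumors at 5.82 and 7.64 CPM and the Balb/c knockout tumors at 0.688 and 1.39 CPM. The host difference was -2.49 (SE 0.30, adjusted p = 0.00216) in wild type and -5.69 (SE 0.37, adjusted p = 0.000238) in knockout, and both calls held in every alternative run. Adamts5, a protease that cleaves proteoglycans, was at 67.5 and 105 CPM in NSG wild type, 244 and 164 in NSG knockout, 103 and 57.2 in Balb/c wild type and 32.1 and 23.9 in Balb/c knockout. The wild-type groups overlapped (-0.11 (SE 0.35, adjusted p = 0.824)) and the knockout groups did not (-2.86 (SE 0.37, adjusted p = 0.00156)).

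Set side by side, 0 of 7 fibrillar collagens, 10 of 14 basement membrane genes and 1 of 6 crosslinking genes passed as lower in Balb/c wild type, and 6 of 7, 12 of 14 and 6 of 6 in Balb/c knockout. Over all genes 16.2% passed as lower in wild type and 15.4% in knockout. The difference between these groups by role was not tested, and the number of wild-type calls moved with single libraries, as described further on. The summed level of the 7 fibrillar collagens was 18777 and 27556 CPM in NSG wild type, 34618 and 31225 in NSG knockout, 13269 and 9111 in Balb/c wild type and 11756 and 4014 in Balb/c knockout. That of the 14 basement membrane genes was 4306 and 5098 CPM in NSG wild type, 4709 and 7462 in NSG knockout, 1660.3 and 1527 in Balb/c wild type and 1709.7 and 1184 in Balb/c knockout. The 6 maturation and crosslinking genes summed to 1635 and 2214 CPM in NSG wild type, 2099.5 and 2135 in NSG knockout, 994 and 673 in Balb/c wild type and 796 and 275 in Balb/c knockout. In each sum the 4 Balb/c libraries lay below the 4 NSG libraries. The Balb/c to NSG ratio of group means in wild type was 0.483 for fibrillar collagens, 0.339 for basement membrane genes and 0.433 for crosslinking genes, and in knockout it was 0.240, 0.238 and 0.253. In the same order, the SDs of single libraries carried through to these ratios were 0.181, 0.0451 and 0.150 in wild type, and 0.167, 0.0976 and 0.174 in knockout. They are wider than the errors of ratios of group means. The Balb/c knockout libraries lay far apart, at 11756 and 4014 CPM for fibrillar collagens and 796 and 275 for crosslinking genes. They were closer for basement membrane genes, at 1709.7 and 1184 CPM. Each knockout ratio thus rests on a mean of unlike libraries and would move if either were left out.

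The basement membrane sum per 100 CPM of fibrillar collagen was 22.9 and 18.5 in NSG wild type, 13.6 and 23.9 in NSG knockout, 12.5 and 16.8 in Balb/c wild type, and 14.5 and 29.5 in Balb/c knockout. The wild-type groups did not overlap in this ratio and the knockout groups did. Clone 69 had the higher ratio in both hosts. The crosslinking sum per 100 CPM of fibrillar collagen was 8.71 and 8.03 in NSG wild type, 6.06 and 6.84 in NSG knockout, 7.49 and 7.38 in Balb/c wild type, and 6.77 and 6.85 in Balb/c knockout. This ratio varied far less than the sums, and its knockout values were all below its wild-type values, an order that was not tested. The sums behind it moved differently in the hosts. From wild type to knockout the mean fibrillar sum went from 23166 to 32921 CPM in NSG and from 11190 to 7885 in Balb/c. The mean crosslinking sum went from 1924 to 2117 CPM in NSG and from 833 to 535 in Balb/c.

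**Figure D3:**
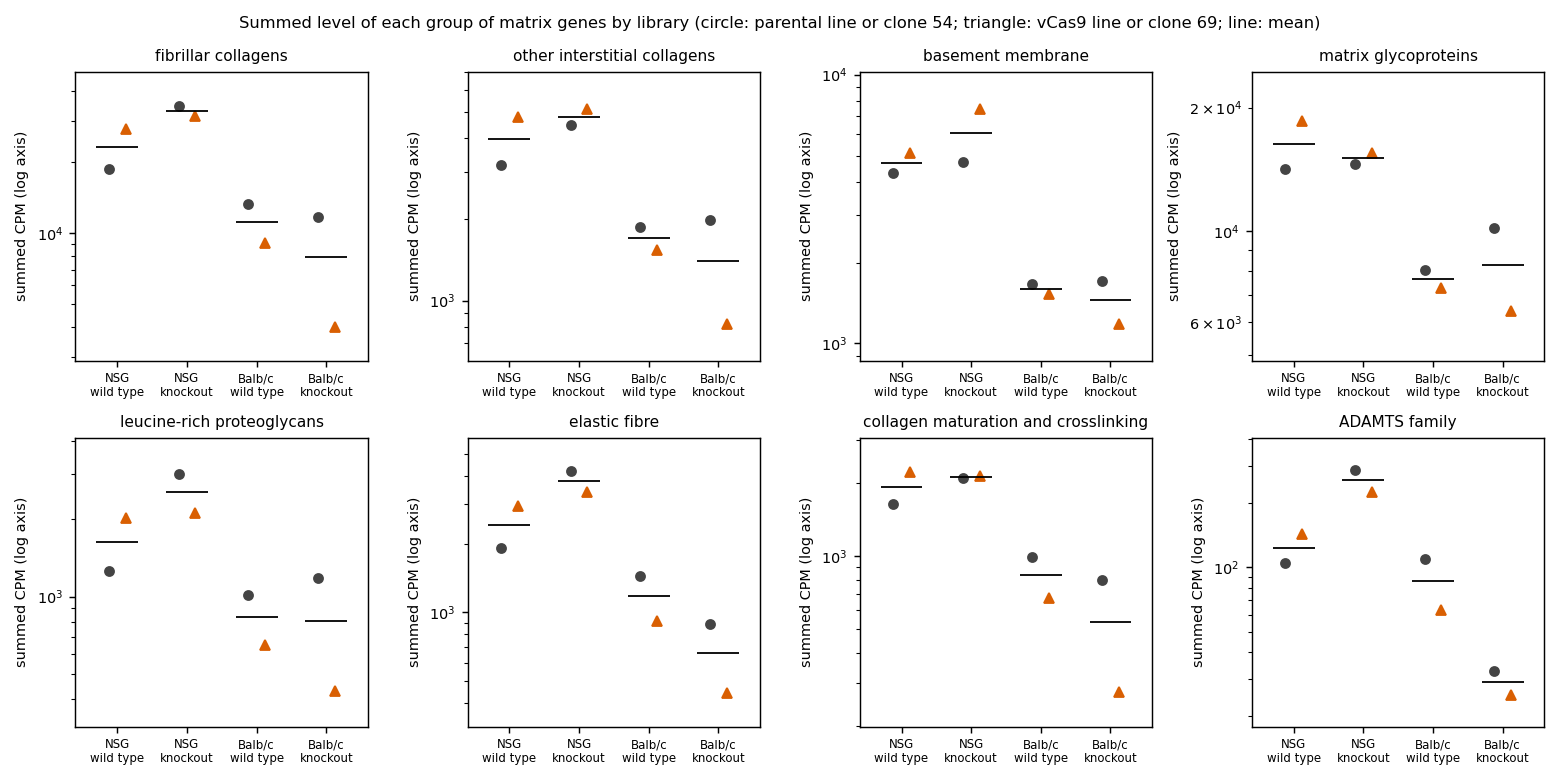
Summed CPM of each of the 8 groups of matrix genes in each library on log axes; circles are the parental line or clone 54, triangles the vCas9 line or clone 69, and lines group means. For fibrillar collagens the NSG tumors span 18777 to 34618 CPM and the Balb/c tumors 4014 to 13269 CPM.

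Markers of other cells moved with the host as well. Of 8 fibroblast markers, 1 passed as lower in Balb/c wild type and 7 in Balb/c knockout; their summed level was 826 to 1106 CPM in NSG wild type, 711 to 1086 in Balb/c wild type, 1232 to 1687 in NSG knockout and 493 to 673 in Balb/c knockout. The fibroblast sums overlapped between hosts in wild type, where the fibrillar collagen sums did not. The single markers were not alike in this. Both Balb/c wild-type libraries lay below both NSG ones for 3 of 8 (Pdgfra, Lrrc15 and Twist1) and above them for 0. Of all genes 41% lay below in this way. Of 8 pericyte and smooth muscle markers, 4 and 2 passed as lower, with sums of 255 to 551 CPM in NSG wild type, 106 to 179 in Balb/c wild type, 366 to 529 in NSG knockout and 203 to 356 in Balb/c knockout. Of 8 adipocyte markers, 3 passed as lower in wild type, and 5 passed as lower and 1 as higher in knockout, with median log2 fold changes of -2.05 and -2.96. Their sum, most of which was Fabp4, was 122 to 181 CPM in NSG wild type, 45.1 to 95.3 in Balb/c wild type, 146 to 179 in NSG knockout and 212 to 283 in Balb/c knockout, and Lep had 0 counts in both Balb/c wild-type libraries. Of 10 endothelial markers, 3 passed as lower in wild type, and 0 as lower and 1 as higher in knockout, with medians of -1.25 and -0.06. The endothelial sum was 309.8 to 516 CPM in NSG wild type, 207 to 313 in Balb/c wild type, 360.1 to 639.6 in NSG knockout and 560.5 to 711 in Balb/c knockout. All 7 T cell markers were higher in Balb/c in both genotypes, and 8 of 8 macrophage markers were higher in Balb/c knockout, with sums of 4665 to 11775 CPM against 1856 to 2365 in NSG knockout. In wild type 1 macrophage marker passed as lower and 1 as higher, 6 of 8 had a negative value, and the sums were 2439 to 2703 CPM in Balb/c against 3428 to 3535 in NSG. Of 8 neutrophil markers, 4 passed as higher in Balb/c wild type and 1 in Balb/c knockout, with sums of 1350.4 to 1694 CPM in NSG wild type, 5878 to 7533 in Balb/c wild type, 1466 to 3091 in NSG knockout and 532 to 2538 in Balb/c knockout. In knockout 6 of the 8 neutrophil markers had a negative log2 fold change, and the median was -0.83. The part of these cells in the matrix gene differences was not tested.

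The number of wild-type host calls moved with single libraries, among the members and over all genes. Without the NSG wild-type tumor of the parental line 9 of 50 members passed (5.45% of all genes), without that of the vCas9 line 5 (8%), without the Balb/c wild-type tumor of the parental line 6 (8.16%), and without that of the vCas9 line 4 (9.44%). Leaving out a Balb/c knockout tumor, which is in neither group compared but enters the same fit, gave 33 for clone 54 (39.2% of all genes) or 36 for clone 69 (40.5%). Lamb1, Lamb2 and Adamtsl3 were the 3 members of 21 whose wild-type call held whichever library was left out. When a replicate block for the cell line was added, 9 of the 21 calls held, where 13.5% of all genes passed, among them Col18a1, Adamtsl3, Lamb1, Lama5, Col8a1 and Col16a1, and the calls of Tnc, Col15a1, Col12a1, Col4a1, Col4a2, Fbln2 and Serpinh1 did not.

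In knockout 31 members passed with the block (18.8% of all genes), 23 without the NSG tumor of clone 69 (15.6%), 46 without the Balb/c tumor of clone 54 (29.3%) and 23 with the 4 knockout libraries fitted alone (16.8%). Of the 40 knockout calls, 22 held whichever library was left out. They included Col5a1 as the only fibrillar collagen, Col14a1 and Col16a1, 8 basement membrane genes (Col18a1, Lama2, Lama4, Lamb1, Lamb2, Lamc1, Nid1 and Hspg2), Fbn1, Fbln1 and Eln of the elastic fibre genes, and Serpinh1, Plod2 and Loxl1 of the maturation genes. The other 18 were lost without at least 1 library, among them Col1a2, Col4a5 and Dcn without any 1 of 7, Col5a2 without any 1 of 6, Lox without any 1 of 5, and Col1a1 and Col3a1 without 1, the NSG tumor of clone 69 and of clone 54 respectively.

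CD95 loss within NSG tumors gave no call among the members. All 8 libraries entered the fit, and 0 of 50 members passed, where 2 of 15310 genes did (0.0131%). With an unadjusted p under 0.05 there were 2 members higher in knockout (Eln and Adamts5) and 1 lower (Thbs1), where 14% of all genes had such a p, 6.78% as higher and 7.25% as lower. DESeq2 called 2 members and 1.63% of all genes. The log2 fold change was positive for 41 of 50 members, with a median of 0.50 against 0.01 over all genes. The median was 0.25 without the NSG tumor of the parental line and 0.77 without that of the vCas9 line, with 40 and 45 members positive. Both knockout tumors lay above both wild-type tumors for 30 of 50 members and below for 2, against 26.7% and 25.8% of all genes. This comparison shares its tumors with the host comparisons above.

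Thbs1 had the lowest value of this comparison. As given above, the NSG wild-type tumors were at 4916 and 5821 CPM and the knockout tumors at 1393 and 1419.5, apart by -1.93 (SE 0.42, adjusted p = 0.192). DESeq2 and the fit without a filter on low counts called this gene, while edgeR with the filter did not. At the other end, Adamts5 was at 67.5 and 105 CPM in wild type and 244 and 164 in knockout (1.24 (SE 0.35, adjusted p = 0.244)). Eln was at 63.5 and 119 and 205 and 191 (1.12 (SE 0.33, adjusted p = 0.251)). In neither gene did the NSG groups overlap.

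The fibrillar collagens in NSG had a median of 0.51 with 6 of 7 positive, and 5 of 7 had both knockout tumors above both wild-type tumors. Col1a1 differed by 0.74 (SE 0.51, adjusted p = 0.528) and Col3a1 by 0.49 (SE 0.51, adjusted p = 0.682). The basement membrane genes had a median of 0.52, and those of maturation and crosslinking 0.11 with 3 of 6 positive. Lox was at -0.17 and Plod2 at -0.22, while Loxl1 was at 0.77, each less than 2 of its standard errors from 0. The leucine-rich proteoglycans all had both knockout tumors above both wild-type tumors, among them Lum (0.99 (SE 0.51, adjusted p = 0.419)). Fibroblast markers had 3 of 8 higher in NSG knockout at an unadjusted p under 0.05 and 0 calls, and 3 of 8 adipocyte markers were higher at such a p, also with 0 calls. Both knockout tumors lay below both wild-type tumors for 8 of 8 macrophage markers and above them for 7 of 8 carcinoma epithelium markers, with sums of 1856 to 2365 CPM against 3428 to 3535 and of 2110.2 to 3334 against 1169 to 1496.5. The part of these cells in the matrix values was not tested.

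In Balb/c tumors the member values leaned the other way, and 1 of 50 members passed, where 27 of all genes did (0.176%), 0.131% as lower. The call was Adamtsl3, which fell from 6.73 ± 1.29 to 1.04 ± 0.494 CPM (SD, n = 2), or -2.73 (SE 0.36, adjusted p = 0.0450). It stood close to the threshold: without any 1 library other than the Balb/c knockout tumor of clone 69 the call was lost, at log2 fold changes of -3.00 to -2.37. At an unadjusted p under 0.05 there were 13 members lower and 1 higher (Col15a1), where 30.9% of all genes had such a p, 14.3% as lower and 16.6% as higher. The log2 fold change was negative for 35 of 50 members, with a median of -0.39 against 0.06 over all genes. Without the clone 69 tumor 25 members were negative and 25 positive (median -0.01), without the clone 54 tumor 43 were negative (median -1.19), and without the wild-type tumor of the parental or the vCas9 line 31 and 37 were (medians -0.20 and -0.64). Both knockout tumors lay below both wild-type tumors for 14 members and above for 3, against 29.3% and 32.9% of all genes. DESeq2 called 13 members and 10.4% of all genes. Without the clone 69 tumor 7 of 50 members passed, 4 as higher and 3 as lower, where 24.8% of all genes did.

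The members at the lower end came from several groups. In wild type Plod2 stood at 103 and 83.6 CPM, and in knockout at 47.8 and 25.7 (-1.34 (SE 0.28, adjusted p = 0.0564)). Adamts5 was at 103 and 57.2 and 32.1 and 23.9 (-1.51 (SE 0.36, adjusted p = 0.0597)). Thbs2 was at 334 and 229 and 141 and 63.2 (-1.46 (SE 0.39, adjusted p = 0.0675)). In each of these the groups were apart. Col14a1 (-1.35 (SE 0.36, adjusted p = 0.0677)), Fbln1 (-1.28 (SE 0.34, adjusted p = 0.0664)) and Nid1 (-1.11 (SE 0.34, adjusted p = 0.0826)) had similar values. At the other end Col15a1 was at 25.8 and 36.8 and 137 and 59.9 (1.65 (SE 0.51, adjusted p = 0.0847)), and Fn1 at 4186 and 3583 and 7420.2 and 4299 (0.59 (SE 0.35, adjusted p = 0.274)).

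The knockout clones differed widely from each other in Balb/c. Clone 69 was below clone 54 for 44 of 50 members there, with a median ratio of 0.443, and for 22 of 50 in NSG, with a median ratio of 1.04. The shares of all genes with this order are not given here. Of the 7 fibrillar collagens, 6 overlapped between wild type and knockout in Balb/c, with clone 54 near the wild-type tumors and clone 69 well below them. Marker levels differed between the same libraries: the fibroblast sum was 673 CPM in clone 54 and 493 in clone 69, the macrophage sum 11775 and 4665, and the carcinoma epithelium sum 743 and 4231. All 10 endothelial markers and all 8 macrophage markers had an unadjusted p under 0.05 as higher in Balb/c knockout, and 3 of 8 fibroblast markers and 6 of 8 neutrophil markers as lower. Over all genes 16.6% had such a p as higher and 14.3% as lower. None of these markers passed the test after adjustment. The neutrophil sum was 532 CPM in clone 54 and 2538 in clone 69. The part of these cells in the matrix values was not tested.

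Whether the effect of CD95 loss differed between hosts was tested as an interaction, and no member passed, as no gene did (0%, smallest adjusted p = 0.0691 over all 15310 genes). With an unadjusted p under 0.05 there were 12 members, all with a more negative value in Balb/c, where 22.5% of all genes had such a p, 10.1% in that direction. DESeq2 called 10 members and 4.65% of all genes, and the fit without a filter 9 members and 3.24%. The difference was negative for 42 of 50 members, with a median of -0.64 against 0.03 over all genes. Without the Balb/c tumor of clone 69 it was negative for 31 (median -0.28), and without that of clone 54 for 45 (median -1.58). By group the median was -0.76 for fibrillar collagens, -0.26 for basement membrane genes, -0.80 for maturation and crosslinking, and -1.97 for elastic fibre genes. In the fit without the clone 69 tumor 5 of 50 members passed, where 15.1% of all genes did.

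In 9 members both NSG knockout tumors lay above both NSG wild-type tumors while both Balb/c knockout tumors lay below both Balb/c wild-type tumors, a pattern that 7.14% of all genes had. They were Col14a1, Lama2, Nid1, Thbs2, Fbn1, Fbln1, Eln, Adamts5 and Adamtsl3. None is a type I, III or V fibrillar collagen. The interaction was -3.20 (SE 0.45, adjusted p = 0.0738) for Adamtsl3, -2.75 (SE 0.50, adjusted p = 0.0794) for Adamts5 and -1.99 (SE 0.47, adjusted p = 0.0995) for Eln. It was -2.09 (SE 0.51, adjusted p = 0.100) for Col14a1 and -2.00 (SE 0.57, adjusted p = 0.119) for Fbn1. For comparison, Col1a1 had -1.34 (SE 0.72, adjusted p = 0.303), and Thbs1 and Col15a1 had positive values (0.85 (SE 0.57, adjusted p = 0.408) and 1.14 (SE 0.70, adjusted p = 0.368)).

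**Figure D4:**
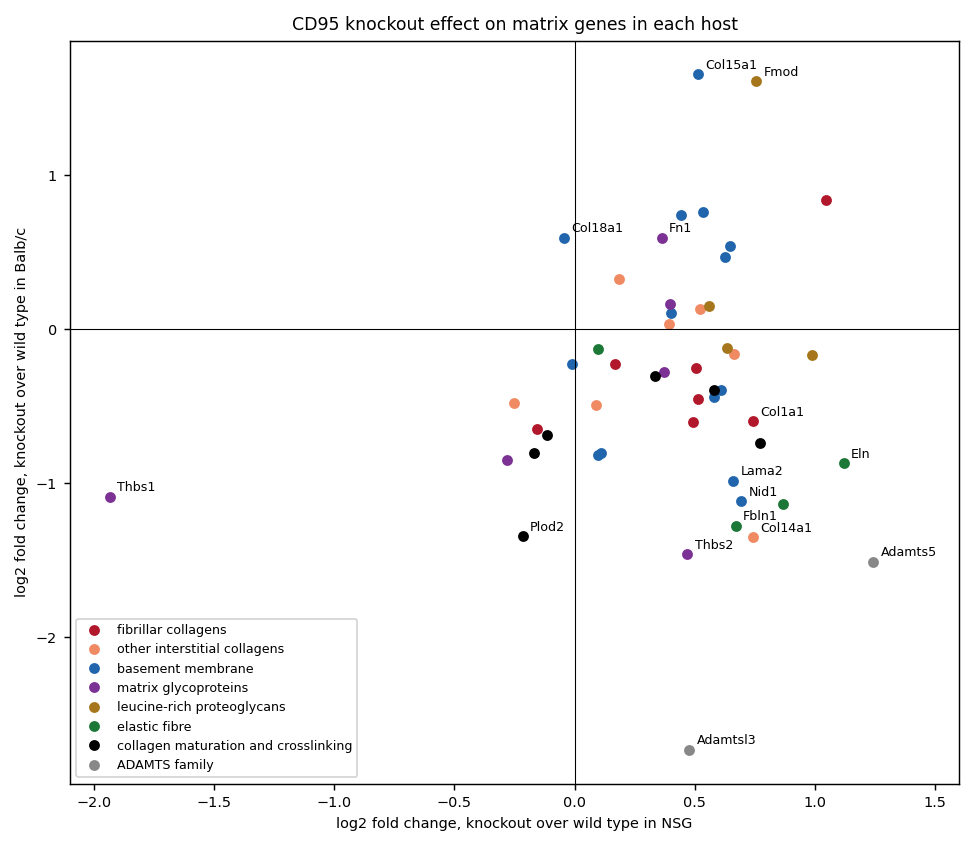
Log2 fold change of each of the 50 genes between knockout and wild-type tumors in NSG (x axis) and in Balb/c (y axis), coloured by group. Most points lie to the right of 0 and below 0; Adamtsl3 is lowest in Balb/c (-2.73) and Thbs1 lowest in NSG (-1.93), and no interaction passed the test.

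Other genes of the same pathways, 71 in all and 67 of them tested, showed calls in both directions between hosts. In wild type 27 passed as lower in Balb/c and 7 as higher, and in knockout 32 as lower and 2 as higher. Of 25 other collagen maturation genes, such as prolyl hydroxylases, 14 were lower and 1 higher in wild type, and 11 lower and 1 higher in knockout. Of 13 collagen and laminin receptors, 7 were lower in wild type and 10 in knockout, with 0 higher. Of 16 other collagen chains tested, 2 were lower and 5 higher in wild type, and 3 lower and 1 higher in knockout. Their median log2 fold change was 0.82 in wild type, with 12 of 16 positive, and -0.36 in knockout, with 7 of 16 positive. Of 13 other basement membrane genes, 4 were lower and 1 higher in wild type, and 8 lower and 0 higher in knockout. Over all genes 31.5% passed in wild type and 31.1% in knockout, in either direction. None of the 67 passed for CD95 loss in either host.

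Col6a5, a type VI chain, went against the direction of every member. It was at 1.18 and 2.65 CPM in NSG wild type, 2.35 and 2.69 in NSG knockout, 50.4 and 66.6 in Balb/c wild type and 225 and 105 in Balb/c knockout, which is 4.95 (SE 0.49, adjusted p = 0.00110) in wild type and 6.02 (SE 0.51, adjusted p = 0.000359) in knockout. Col7a1, the collagen of anchoring fibrils below epithelium, was at 242 and 375 CPM in NSG wild type, 325 and 610.0 in NSG knockout, 69.2 and 75.6 in Balb/c wild type and 23.9 and 13.6 in Balb/c knockout and fell in both genotypes, at -2.09 (SE 0.39, adjusted p = 0.00836) in wild type and -4.64 (SE 0.44, adjusted p = 0.000512) in knockout. Npnt (nephronectin), a basement membrane ligand of integrins, was at 102 and 80.7 CPM in NSG wild type, 59.5 and 352 in NSG knockout, 12.9 and 22.7 in Balb/c wild type and 2.80 and 11.9 in Balb/c knockout and fell in knockout (-4.83 (SE 0.95, adjusted p = 0.00797)), with -2.36 (SE 0.85, adjusted p = 0.0670) in wild type. Col13a1, a transmembrane collagen, was at 1.87 and 5.96 CPM in NSG wild type, 2.57 and 8.35 in NSG knockout, 0.0849 and 0.346 in Balb/c wild type and 0.952 and 0.511 in Balb/c knockout and fell in both genotypes, at -4.05 (SE 0.96, adjusted p = 0.0187) in wild type and -2.86 (SE 0.81, adjusted p = 0.0318) in knockout. Col9a1, a cartilage collagen, had 0 counts in both NSG wild-type tumors and stood at 3.48 and 1.94 CPM in the Balb/c ones, at least 11.9-fold higher against a floor of 3 counts per library. Among knockout tumors Col9a1 was at 5.03 and 1.49 CPM in NSG and 0.317 and 2.04 in Balb/c, with overlapping groups and the opposite sign (-1.50 (SE 0.92, adjusted p = 0.256)).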

How the data were processed

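Total RNA of 8 tumors or tumor pools was sequenced, and the authors deposited 1 table of raw counts per Ensembl gene for each library. The submitters' processing notes name cutadapt 1.13, STAR, HTSeq 0.6.1p1 and DESeq2 and the builds mm10 and hg19; which step used which build, the annotation and the strand setting are not given in the sources used here. Groups came from the host strain and CD95 status in the labels. Symbols were found for 24942 of 25006 identifiers, and positions and exon lengths came from GENCODE M21 (GRCm38). The 50 members, the pathway and marker lists and the tests were chosen with earlier results of these data known.

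The deposited counts were fitted in R 4.3.3 with edgeR 4.0.16 (TMM, filterByExpr, quasi-likelihood test) as 4 group means over all 8 libraries, with 4 residual degrees of freedom. P-values were adjusted by Benjamini and Hochberg over 15310 genes, with a threshold of 0.05, and standard errors were derived from the fold change and the F statistic. CPM was computed from the counts with TMM-scaled totals. A count of 3 corresponds to 0.159 to 0.321 CPM, which covers counting error only. Genes named with values in every library were the members past the threshold (at most the 12 widest per comparison) and the highest and lowest member of each group by role; further members are given as examples of their role. Up to 3 pathway genes were named per comparison. Alternatives were other scalings, no filter on low counts, DESeq2 1.42.0, limma-voom (limma 3.58.1), the compared libraries alone, each library left out, and a replicate block for the cell line. The procedure was tested on simulated counts, whose results are not given here. Samples were paired between hosts by the names of the lines in the sample titles, as all 4 lines were grown in NSG and in Balb/c. The deviation between the lines of a group correlated between hosts at r = 0.0875 for the wild-type lines and r = -0.353 for the clones, across 15310 genes, which are not independent replicates.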

Additional observations from a re-analysis of the deposited data

How the results depend on the processing

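Leaving out each library in turn gave 4 to 36 members called for the host in wild type, 23 to 46 in knockout, 0 to 7 for CD95 loss in Balb/c and 0 to 5 for the interaction; the lone library left in a group was assumed to vary like the others. With the compared libraries fitted alone, 36 members were called for the host in wild type, 23 in knockout and 0 for CD95 loss in Balb/c, where 46.7%, 16.8% and 0% of all genes were. With a replicate block for the cell line, the host calls were 9 in wild type and 31 in knockout (13.5% and 18.8% of all genes), and the interaction calls 0. Pairing the clones crosswise, an alternative chosen after seeing the data, gave 43 host calls in knockout and 1 interaction call (35.5% and 2.01% of all genes). Without a filter on low counts 1, 11 and 9 members were called for CD95 loss in NSG, in Balb/c and for the interaction, and with DESeq2 2, 13 and 10; over all genes these were 0.638%, 8.52% and 3.24%, and 1.63%, 10.4% and 4.65%. Library totals alone and limma-voom each gave 0 calls for CD95 loss in Balb/c. The causes were not tested.

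Some named log2 fold changes changed sign, among them Fmod, which was at 1.61 for CD95 loss in Balb/c, 0.85 for the interaction and -0.76 for the host in knockout. For the host in wild type Nid1 was 0.053 with RLE size factors, 0.031 without a filter, 0.029 with the compared libraries alone, and 0.042 with DESeq2. With single libraries left out it lay between -0.53 and 0.39, Lum between -0.70 and 0.16 and Adamts5 between -0.60 and 0.32, and for the host in knockout Fmod lay between -2.77 and 0.021. Ranges without a change of sign were also wide for the host in knockout. They were -3.86 to -1.99 for Col18a1, -3.46 to -1.78 for Col5a1 and -4.03 to -2.31 for Tnc, among others. Bgn lay between -3.595 and -1.44, and Loxl1 between -3.20 and -1.70. For CD95 loss in NSG, Col18a1 was 0.084 with library totals alone and -1.18 to 0.58 with single libraries left out, Col5a3 -0.34 to 0.050, Col12a1 -0.69 to 0.078 and Fbln2 -0.13 to 0.35. For CD95 loss in Balb/c the ranges were -0.71 to 0.89 for Col6a1, -1.18 to 0.39 for Lum, -0.48 to 2.39 for Fmod, -1.18 to 0.45 for Fbln2 and -1.26 to 0.24 for Serpinh1. For the interaction they were -1.65 to 0.52 for Col11a1, -0.90 to 0.71 for Col6a1, -1.25 to 1.64 for Fmod and -1.29 to 0.35 for Fbln2, and Col6a1 was -0.071 with limma-voom, -0.049 with the replicate block and -0.049 with the crosswise pairing as a block. The Balb/c to NSG ratios of the fibrillar, basement membrane and crosslinking sums were compared under every scaling run. Each moved by less than the SD of single libraries carried through to the ratio. That SD is wider than the error of a ratio of group means. The basement membrane ratio in wild type was 0.339 with TMM and 0.304 with library totals alone. This comparison covers the choice of scaling only and not the difference between single libraries.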

Other observations

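Lines of the same genotype differed from each other, and their ratios were not alike in the NSG and Balb/c tumors sequenced. In NSG the vCas9 line was above the parental line for 46 of 50 members, with a median ratio of 1.47, and in Balb/c it was below the parental line for 38 of 50, with a median ratio of 0.792. Clone 69 over clone 54 had a median ratio of 1.04 in NSG and 0.443 in Balb/c. Each line had 1 library per host, so host and variation between tumors cannot be told apart, and these ratios were not tested. They have no replicate check, and the shares of all genes with these orders are not given here.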
